A study of Mus musculus with 2 samples.

Results

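Cxcl9-negative C1q macrophages were the tumour macrophages that carried complement C1q transcripts and not a single transcript of the interferon-induced chemokine Cxcl9. They were taken from single-cell profiles of CT26 colon tumours, CT26 being an established mouse colon carcinoma line. A barcode belonged to the set when under 20% of its UMIs (unique molecular identifiers, here transcript counts) were mitochondrial. It also had at most 1 UMI of Hmga2, a gene of the tumour cells, at least 2000 CPM (UMIs scaled to the same total in every cell or set) summed over C1qa, C1qb and C1qc, and at least 1 UMI of Csf1r or Ptprc. Barcodes with any UMI of Cd3d, Cd3e, Cd3g, Xcr1 or Cxcl9 were left out. The rule found 907 cells among 26063 deposited barcodes. Its members were thus chosen by the measured UMIs of Hmga2, C1qa, C1qb, C1qc, Csf1r, Ptprc, the Cd3 genes, Xcr1 and Cxcl9, and the levels of these genes are given as a description only.

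The study compared tumours of mice given an antibody to SLC7A11, the cystine-importing subunit of the xc- exchanger, with tumours of mice given control IgG. Each antibody was dosed at 10 mg/kg every 2 days once tumours had reached 50 to 100 mm3. The tumour cells were injected at the caecal junction, although the study text also speaks of subcutaneous growth. Each group was 1 library, and the number of animals in a library, their strain, sex and age were not given in the sources used here. Nothing can therefore be tested between the groups. Every interval below is a 95% exact interval that covers counting error only, and the variation between animals is not in it.

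C1q is made in tumours chiefly by macrophages, and C1q-rich macrophages have been described in several states. Macrophages that meet interferon gamma from T cells or natural killer cells transcribe Cxcl9 and Cxcl10, which recruit T cells through CXCR3. Others express osteopontin (Spp1), a secreted matrix protein that binds integrins and CD44, or fibronectin (Fn1), a matrix glycoprotein. Fcrls encodes an Fc receptor-like scavenger molecule known in mice from microglia and some tissue macrophages. A further fraction divides in the tissue, which shows as transcripts of the mitotic genes.

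The deposited tables held 12153 and 13910 barcodes in the antibody and control libraries, with medians of 7798 and 7559.5 UMIs per barcode. Of these, 12073 and 13864 passed the mitochondrial limit. The labels name goblet cells as the cell type. The goblet cell genes Muc2, Tff3, Spdef, Fcgbp and Clca1, picked after the tables had been read, had between 2 and 57 UMIs each over all kept antibody barcodes and between 0 and 46 over all kept control barcodes. The libraries also stood apart in cells outside the set. Of 9575 genes with at least 20 UMIs in the Cxcl9-negative macrophages, 834 were at least 2-fold higher in the antibody library, which is 8.71%, and 845 were at least 2-fold lower, which is 8.83%. Of the 834, 558 were also at least 2-fold higher in the sum of all other kept barcodes. Of the 845, 20 were also at least 2-fold lower there. The same ratio in tumour cells (barcodes with 2 or more Hmga2 UMIs) is therefore given beside the higher genes. The 2 libraries shared 39 barcode strings, none of which was a member of the macrophage set in both libraries.

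The antibody library held 237 Cxcl9-negative macrophages, or 1.96% of its kept barcodes (1.72 to 2.23%), and the control library 670, or 4.83% (4.48 to 5.20%). The log2 ratio of these shares was -1.30. Among barcodes with Ptprc and at most 1 Hmga2 UMI, a measure of leukocytes, the members with Ptprc were 195 of 2625 in the antibody library (7.43%) and 543 of 1052 in the control library (51.6%), a log2 ratio of -2.80. All C1q macrophages, with Cxcl9 not read, made up 5.84% of antibody barcodes and 5.27% of control barcodes. Over kept barcodes the split by Cxcl9 thus differed more than the share of all C1q macrophages. The share of all C1q macrophages among leukocytes was not taken. Cxcl9 was absent from 237 of 705 C1q macrophages of the antibody library (33.6%, 30.1 to 37.2%) and from 670 of 730 of the control library (91.8%, 89.5 to 93.7%). In tumour tissue a smaller share can mean fewer of these cells, more of other cells, or fewer captured, which these counts cannot tell apart.

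The absence of Cxcl9 depended on how deeply a cell was sequenced. Among antibody C1q macrophages with 500 to 1000 UMIs, 76.9% had no Cxcl9, against 15.5% of those with at least 8000 UMIs. Among control C1q macrophages the shares were 100% and 82.0%. The Cxcl9-negative share was lower in the antibody library in each of the 5 depth classes. When every cell was thinned at random to 2000 UMIs, Cxcl9 was at 0 in 240 of 606 antibody cells (39.6%, 35.7 to 43.6%) and in 592 of 627 control cells (94.4%, 92.3 to 96.1%). At the edge of the rule, 64 antibody and 32 control C1q macrophages were left out for exactly 1 Cxcl9 UMI, and 404 and 28 for 2 or more. The C1q threshold kept 42 antibody and 18 control cells between 2000 and 4000 CPM, and 89 and 23 barcodes between 1000 and 2000 CPM stayed outside.

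**Figure D1:**
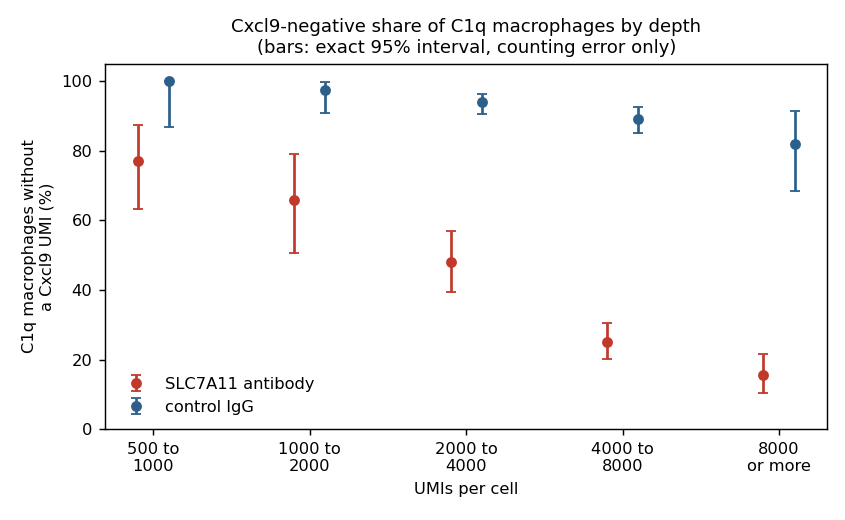
Percent of C1q macrophages without a Cxcl9 UMI (vertical axis) by class of total UMIs per barcode (horizontal axis), antibody library beside control library, with 95% exact binomial intervals. The antibody shares run between 76.9% in the shallowest class and 15.5% in the deepest, the control shares between 100% and 82.0%.

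The Cxcl9-negative macrophages had 972919 UMIs in the antibody library and 2821241 in the control library. Their median depth was 3458 UMIs (range 510 to 13670) in antibody cells and 3770 UMIs (range 545 to 16288) in control cells. The lower quartile was 1580 UMIs in antibody cells and 2571 UMIs in control cells, and 30.0% of antibody and 15.1% of control cells had under 2000 UMIs. The antibody set thus held more shallow cells. C1q made up a median of 13179 CPM in antibody cells and 20636 CPM in control cells. Of the rule's own genes, C1qa stood at 6877 and 10956 CPM, C1qb at 3685 and 5723 CPM and C1qc at 5361 and 3084 CPM in antibody and control cells. C1qc thus went the other way from its 2 partner chains. Its log2 ratio in tumour cells, which hold little of it, was 2.16. In all other kept barcodes, which include the Cxcl9-positive macrophages, C1qa, C1qb and C1qc had log2 ratios of 1.58, 1.60 and 3.08. A higher level outside the set was thus not particular to C1qc.

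The label of macrophage was checked on genes the rule did not read. Of 18 macrophage identity genes, 1 of which the rule did read, none was at 0 in either library. Ctss, a lysosomal protease, stood at 4422 CPM in antibody cells and 4429 CPM in control cells. The macrophage adhesion receptor gene Adgre1, which encodes F4/80, stood at 199 and 197 CPM, and Cd68 at 892 and 1008 CPM. Over the 17 genes outside the rule the median log2 ratio was -0.18, against a median of -0.12 over all 9575 genes. Lyz2, the lysozyme gene, was lower, with 8752 CPM in antibody cells and 17164 CPM in control cells. Cd14, the lipopolysaccharide co-receptor gene, was 2-fold lower, with 940.5 CPM against 1971 CPM. Spi1, the gene of the transcription factor PU.1, was higher, with 411 CPM against 93.2 CPM, and its log2 ratio of 2.14 stood beside 3.47 in tumour cells.

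Genes of other cell types, with Bst2 left out, summed to no more than 339 CPM per list in either library. The neutrophil, type 1 and type 2 dendritic cell, B cell and endothelial sums lay above those of all other kept barcodes in both libraries. The migratory dendritic cell, T cell, mast cell, fibroblast and tumour sums lay below them in both. The natural killer and plasmacytoid dendritic cell sums lay above them in antibody cells and below them in control cells. Neutrophil genes summed to 309 CPM in antibody cells and 110.2 CPM in control cells, with S100a9 the largest part. That gene's 197 and 151 UMIs lay in 4.64% and 1.94% of the cells. Genes of type 1 dendritic cells summed to 339 and 187 CPM, most of it Cadm1, with Clec9a at 0 in both libraries. Genes of type 2 dendritic cells summed to 173 and 129 CPM, most of it Mgl2. Natural killer genes summed to 42.1 and 4.61 CPM, T cell genes to 24.7 and 3.19 CPM, and plasmacytoid dendritic cell genes to 24.7 and 0.354 CPM. The plasmacytoid sum did not include Bst2, which had 1063 UMIs in antibody cells and 3561 in control cells. Cadm1, the main part of the largest sum, had 293 and 374 UMIs, so Bst2 would have exceeded that gene. Fibroblast genes summed to 60.6 and 50.3 CPM, endothelial genes to 49.3 and 43.2 CPM, and the tumour list with Hmga2 to 38.0 and 32.3 CPM. Migratory dendritic cell genes summed to 32.9 and 27.6 CPM, B cell genes to 15.4 and 28.4 CPM and mast cell genes to 11.3 and 1.42 CPM. Taken without Bst2, all of these sums but that of the B cell genes were higher in antibody cells, and their part in the results below was not tested. The T cell receptor genes Cd3d, Cd3e and Cd3g and the dendritic cell gene Xcr1 were at 0 by the rule.

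The states were read after thinning each cell to 2000 UMIs, so that a gene had the same chance of detection in every cell. This left 166 antibody and 569 control macrophages and dropped 71 and 101 that were shallower. Because free RNA from broken cells enters droplets, each share is set beside the share among T cells of the same library at the same depth. There were 532 antibody and 57 control T cells deep enough for this.

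Among the state genes, Fcrls was the one at 0 in the thinned T cells of both libraries. It was detected in 15 of 166 antibody cells (9.04%, 5.15 to 14.5%) and in 180 of 569 control cells (31.6%, 27.8 to 35.6%). It was found in 0 of 532 antibody T cells and 0 of 57 control T cells, which allow shares of up to 0.564% and 5.26%. The share of Fcrls-positive cells was thus above the T cell level in both libraries. The antibody share was 3.50-fold lower than the control share, and the intervals did not overlap. All UMIs of the unthinned cells gave the same order, with 48 UMIs in antibody cells (49.3 CPM) and 803 in control cells (285 CPM). The log2 ratio of these levels was -2.51 (-2.98 to -2.11). The 48 antibody UMIs came from 25 cells and the 803 control UMIs from 295 cells. No antibody cell had more than 7 Fcrls UMIs, while the highest control cell had 19. In C1q macrophages with Cxcl9, Fcrls was detected in 2.05% of antibody cells and 25.9% of control cells. Without any split by Cxcl9 the shares were 3.47% and 33.7%, a log2 ratio of -3.28, against -1.81 among the Cxcl9-negative cells. C1q-low monocytes held few, with 1.27% and 3.70%.

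The antibody share was the lower in every class of depth. In cells with 2000 to 4000, 4000 to 8000 and at least 8000 UMIs before thinning, Fcrls was detected in 7.69%, 9.59% and 10.7% of antibody cells. The control shares in these classes were 29.8%, 32.0% and 41.5%. The Fcrls share rose over the C1q classes in both libraries, but the intervals of the lowest and highest class overlapped in each. Fcrls was found in 0 of 44 antibody cells with 2000 to 10000 CPM of C1q, which allows up to 6.82%, in 9.86% of those with 10000 to 20000 CPM, and in 15.7% of those above. In control cells the shares were 23.7%, 26.4% and 36.6%. Antibody cells were more often in the lowest C1q class, with 26.5% of antibody and 10.4% of control cells. At each level of C1q the antibody share of Fcrls-positive cells was below the control share, with intervals that did not overlap.

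**Figure D2:**
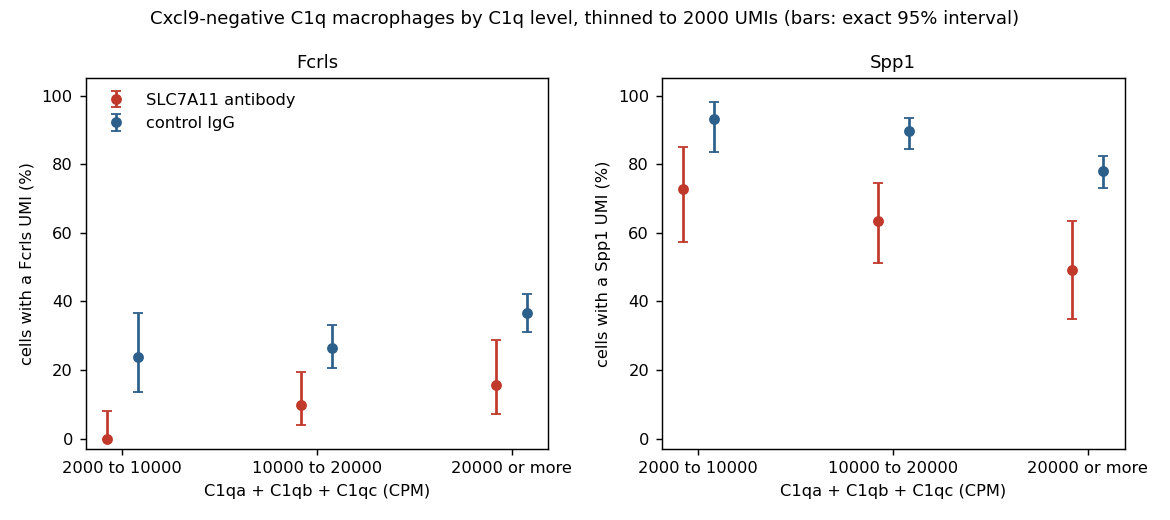
Percent of Cxcl9-negative macrophages thinned to 2000 UMIs that were positive for Fcrls or for Spp1 (vertical axis of each panel), by C1q level in CPM (horizontal axis). The antibody library is beside the control library, with 95% exact binomial intervals. Fcrls is most frequent in the highest C1q class of both libraries, with 15.7% of antibody and 36.6% of control cells, and Spp1 is least frequent there.

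Fn1 was detected in 39 of 166 antibody cells (23.5%, 17.3 to 30.7%) and 252 of 569 control cells (44.3%, 40.2 to 48.5%). T cells, which should not transcribe it, had 19.4% in the antibody library and 15.8% in the control library. Tumour cells were a strong source of Fn1 RNA, with 609 and 992 CPM. The interval of the antibody share included the T cell share, so Fn1 made by these cells cannot be told apart from RNA of other cells. The control share was above that of its T cells, with intervals that did not overlap. A stricter limit of at least 3 UMIs, set after the T cell shares had been seen, was passed by 5 antibody cells (3.01%) and 96 control cells (16.9%). It was passed by 2.63% of antibody T cells and 0 of 57 control T cells. Summed over all cells, Fn1 had 207 UMIs (213 CPM) in antibody cells and 1784 UMIs (632 CPM) in control cells, a log2 ratio of -1.57. Cxcl9-positive C1q macrophages had Fn1 shares of 12.7% (9.76 to 16.2%) and 34.5%, the antibody share being below that of the Cxcl9-negative cells with intervals that did not overlap, and C1q-low monocytes of 26.8% and 53.7%.

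Spp1 was not specific to the macrophages. It was detected in 102 of 166 antibody cells (61.4%, 53.6 to 68.9%) and 476 of 569 control cells (83.7%, 80.4 to 86.6%). T cells had 83.5% and 82.5%, which the macrophages did not exceed beyond their intervals in either library. Activated T cells can themselves transcribe Spp1, so their share is not a clean gauge of free RNA for this gene. The level was 1231 CPM in antibody macrophages and 5412 CPM in control macrophages, against 9329 and 17404 CPM in tumour cells and 2647 and 3941 CPM in T cells. Only the control macrophages were above the T cells of their library by level. Per thinned cell, the median was 1 Spp1 UMI in antibody cells and 3 in control cells, and the 90th percentile was 4.5 and 26.2 UMIs. At least 10 Spp1 UMIs, a limit also set after the T cell shares had been seen, were found in 9 antibody cells (5.42%, 2.51 to 10.0%) and 169 control cells (29.7%, 26.0 to 33.6%). T cells gave 14.1% and 26.3% at that limit, which the macrophages did not exceed beyond their intervals. Over the 3 C1q classes, low to high, Spp1 was detected in 72.7%, 63.4% and 49.0% of antibody cells and in 93.2%, 89.6% and 78.0% of control cells. The intervals of the lowest and highest class did not overlap in the control library and overlapped in the antibody library.

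Cycling cells were called from at least 2 UMIs summed over 26 genes of G2 and mitosis. They were 25 of 166 antibody cells (15.1%, 9.99 to 21.4%) and 153 of 569 control cells (26.9%, 23.3 to 30.7%). T cells were cycling by the same limit in 49.1% and 59.6%, so they are no gauge of free RNA here. C1q-low monocytes had 13.2% in the antibody library and 13% in the control library, which the antibody macrophages did not exceed beyond their interval. Cxcl9-positive C1q macrophages had 26.6% and 31.0%, and all C1q macrophages together 21.3% and 27.0%, a smaller difference than among the Cxcl9-negative cells alone. Before thinning the shares were 37.1% and 40.4%. The distribution had a long upper end. The 90th percentile was 2 mitotic UMIs in antibody cells and 10 in control cells, with maxima of 38 and 36.

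Most single genes of the cell cycle lists were also lower in antibody cells. Of the 26 genes of the G2 and mitosis list, 1 was at least 2-fold higher in antibody macrophages and 9 at least 2-fold lower, with a median log2 ratio of -0.76. Over all genes measured 8.71% were higher and 8.83% lower. Of 25 S phase genes, 1 was higher and 17 lower, with a median of -1.41. Mki67, which encodes a protein of dividing cells, stood at 47.3 CPM in antibody cells and 106 CPM in control cells. Top2a, the DNA topoisomerase of mitosis, stood at 75 and 172 CPM, and Birc5, the survivin gene, at 64.8 and 159 CPM. Of the S phase genes, the replicative helicase subunit gene Mcm3 stood at 27.8 and 91.1 CPM and the thymidylate synthase gene Tyms at 20.6 and 72.3 CPM. Cdc20 and Dut were the 2 genes at least 2-fold higher, with log2 ratios of 1.64 and 1.54, against 2.24 and 3.22 in all other kept barcodes. Ccnb2 and Hells were also above 0, with 0.42 and 0.08, and their intervals included 0. In tumour cells the list medians were -0.23 for G2 and mitosis and -0.39 for S phase. Over all C1q macrophages they were -0.53 and -0.73, and in Cxcl9-positive ones -0.59 and -0.94. C1q-low monocytes had -0.46 and -0.20 and T cells -0.60 and -0.44. The direction was thus shared by these cells.

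**Figure D3:**
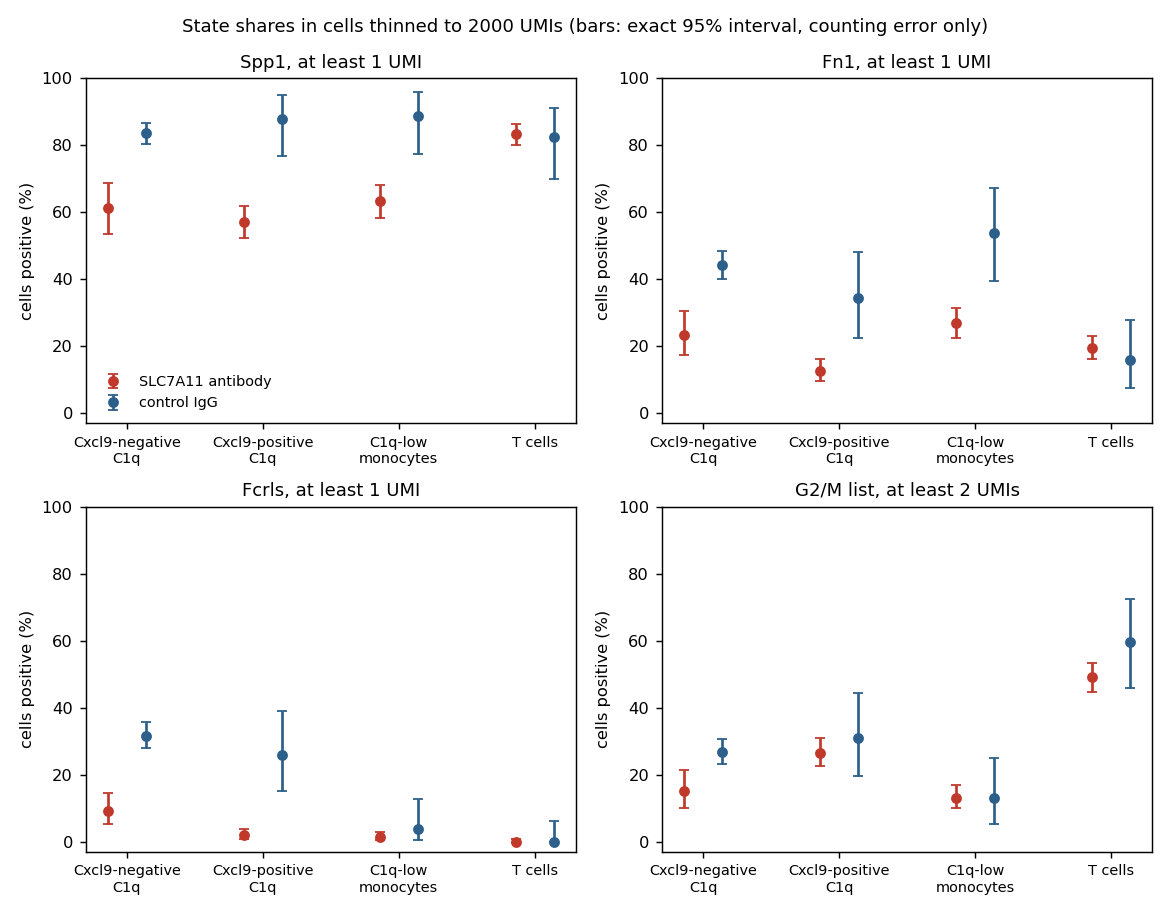
Percent of cells positive for Fcrls, Fn1, Spp1 and cycling after thinning to 2000 UMIs (vertical axis), for Cxcl9-negative and Cxcl9-positive macrophages, C1q-low monocytes and T cells, antibody library beside control library, with 95% exact binomial intervals. Fcrls is at 0 in T cells of both libraries, whereas Spp1 is found in 83.5% and 82.5% of them.

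The overlap of the states was read in the same thinned cells. Fcrls was detected in 12.8% of Fn1-positive and 7.87% of Fn1-negative antibody cells, and in 32.1% and 31.2% of control cells. It was detected in 12% of cycling and 8.51% of other antibody cells, and in 35.9% and 30.0% of control cells. Fn1 was detected in 16.0% of cycling and 24.8% of other antibody cells, and in 39.9% and 45.9% of control cells. In each of these pairs the 2 intervals overlapped. In the control library 23.1% of cells with at least 10 Spp1 UMIs had at least 3 Fn1 UMIs, against 14.2% of the rest. None of Fn1, Fcrls and cycling was seen in 98 antibody cells (59.0%) and 158 control cells (27.8%). All 3 were seen in 1 antibody cell and 23 control cells.

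Within each library, positive and negative cells of a state were compared over 2627 genes with enough UMIs. A gene was counted when it differed at least 2-fold in the same direction in both libraries. The same 2627 genes served every state, so genes that called a state were not left out where they had enough UMIs. Fcrls-positive cells had 1 such gene higher (0.0381%) and 6 lower (0.228%). The higher one was Npl, which encodes a sialic acid-cleaving lyase, with 220.2 against 40.7 CPM in antibody cells and 67.0 against 29.4 CPM in control cells. The mannose receptor gene Mrc1 was also higher, with 3188 against 1106 CPM in antibody cells and 1790 against 1094 CPM in control cells. Gas6, a ligand of the TAM receptors, had log2 ratios of 1.80 and 0.79. Arg1, the arginase gene, was lower in Fcrls-positive cells, with 475 against 1525 CPM in antibody cells and 305 against 742 CPM in control cells. The macrophage elastase gene Mmp12 was lower as well, with 3 UMIs against 1447 in antibody cells (log2 ratio -5.46, -7.96 to -4.13) and a log2 ratio of -1.18 in control cells. Ly6a had log2 ratios of -2.44 and -1.51. Only 15 antibody cells were Fcrls-positive, and 6.51% and 7.35% of genes passed 2-fold in that library alone.

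Cycling cells had 24 genes at least 2-fold higher in both libraries (0.914%) and none lower. Genes of the list that called the cells were not left out of the 24, but the genes named here were not in that list. Stmn1, which encodes the microtubule regulator stathmin, stood at 318 against 34.2 CPM in antibody cells and 617 against 69.6 CPM in control cells. Hmgb2, a chromatin protein gene, stood at 554 against 167 CPM and 945 against 166 CPM. The centromeric histone gene Cenpa and the securin gene Pttg1 had log2 ratios of 2.56 and 2.60 in antibody cells and 2.66 and 2.69 in control cells. Cells called by a few mitotic UMIs thus had more of further genes of division in both libraries. Lower in cycling cells was the collagenase gene Mmp13, with log2 ratios of -1.67 and -0.79.

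Fn1-positive cells had 2 genes at least 2-fold higher in both libraries (0.0761%) and none lower. Fn1 itself, which called the cells, was not left out of that count. Apart from Fn1, the matrix proteoglycan gene Dcn was highest, with 458 against 121 CPM in antibody cells and 271 against 95.3 CPM in control cells. Spp1 was also higher, with 1860 against 995 CPM in antibody cells and 8099 against 3481 CPM in control cells. Both genes were abundant outside the macrophages, and the part of RNA from other cells was not tested. Since the antibody share of Fn1-positive cells was not above that of T cells beyond its interval, these antibody cells do not define a state. The monocyte chemoattractant gene Ccl8 was lower, with log2 ratios of -0.77 and -0.99.

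Spp1-positive cells, by 1 UMI, had 5 genes at least 2-fold higher (0.19%) and 1 lower (0.0381%) in both libraries. Spp1 itself, which called the cells, was not left out of the 5. Dcn, with log2 ratios of 2.07 and 2.48, and Col1a2, with 1.11 and 1.69, were among the higher. Mmp12 was another, with 2145 against 778 CPM in antibody cells and 1005 against 486 CPM in control cells, and Gas6 was the lower, with 111 against 231 CPM and 85.6 against 231 CPM. Cells with at least 10 Spp1 UMIs had 8 genes at least 2-fold higher (0.305%) and 22 lower (0.837%) in both libraries. Spp1 was not left out of the 8 either. Dcn stood at 1741 against 104 CPM in antibody cells and 419 against 44.9 CPM in control cells. Col1a2, a collagen gene, had log2 ratios of 2.54 and 1.67, Cald1, an actin-binding protein gene, 1.88 and 1.72, and Cd9, a tetraspanin gene, 1.92 and 1.15. Dcn stood at 1189 CPM in all other kept barcodes of the antibody library and 1403 CPM in those of the control library, most of which are tumour cells. A gene abundant outside the macrophages thus moved with high Spp1, and the part of RNA from other cells in this contrast was not tested. The class II genes H2-Aa and H2-Eb1 were lower in both libraries, with log2 ratios of -3.39 and -3.10 in antibody cells and -1.84 and -1.89 in control cells. Of 7 class II genes measured, 5 were at least 2-fold lower in both libraries, as were 5 of 14 tissue-resident macrophage genes. The resident macrophage gene Cbr2 had 0 UMIs against 219 in antibody cells and 41 against 428 in control cells. Only 9 antibody cells were in this class, with a median depth of 7600 UMIs, against 4816 in the rest. In control cells the medians were 5080 and 3920.5 UMIs.

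Between the libraries, 12 genes were named as lowest in antibody macrophages. Fcrls and Pmepa1 were also at least 2-fold lower in all other kept barcodes and the remaining 10 were not. All 12 had been required to be at least as high in control macrophages as in the other control barcodes. The tally is thus a description of genes picked in that way. Cx3cr1, the fractalkine receptor gene of monocytes and resident macrophages, had 31 UMIs in antibody cells (31.9 CPM) and 754 in control cells (267 CPM). Its log2 ratio was -3.05 (-3.64 to -2.55), against 0.41 in tumour cells and -0.89 in Cxcl9-positive C1q macrophages. The antibody library's Cxcl9-positive macrophages had more of it, 132 CPM, than its Cxcl9-negative ones. Gpr84, a receptor for medium-chain fatty acids, had 3 UMIs in antibody cells and 138 in control cells, a log2 ratio of -3.77 (-6.28 to -2.41). The siglec gene Cd33 had 14 and 241 UMIs and a log2 ratio of -2.52 (-3.46 to -1.79), with -2.46 when Cxcl9 was not used to choose the cells. Col14a1, a fibril-associated collagen gene, had 12 and 291 UMIs and a log2 ratio of -3.01. Pmepa1, a TGF-beta target gene, had 22 and 348 UMIs and a log2 ratio of -2.42, close to -2.19 in tumour cells. Rapsn, Sh2d1b1, Cinp, Lsamp and Mrps11 had log2 ratios between -2.74 and -1.98. Itgal, an integrin gene of leukocytes, had 9 and 112 UMIs and a log2 ratio of -2.03, but 0.42 over all C1q macrophages. Its order thus depended on leaving out the Cxcl9-positive cells.

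The highest ratios were those of genes that were higher in the antibody library as a whole. The tables also list different genes, 2768 in the antibody table alone and 3106 in the control table alone, and whether both were counted against the same annotation was not given in the sources used here. For genes that differ alike in every cell set, a difference in counting and one in transcript level cannot be told apart. Cox5a, a subunit gene of cytochrome c oxidase, had 599 UMIs in antibody macrophages (616 CPM) and 49 in control macrophages (17.4 CPM), a log2 ratio of 5.13. In tumour cells it was 5.56. Junb, an AP-1 transcription factor gene, had log2 ratios of 5.10 in macrophages and 5.28 in tumour cells, and H2aj 4.95 and 5.12. Ptpn18, Pfn1 and Sdf2l1 had 3.94, 3.41 and 3.21 in macrophages and 4.93, 4.15 and 3.99 in tumour cells. None of these genes was thus more raised in the macrophages than in the tumour cells.

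Some products known from macrophages were among the highest genes, and their levels are given by cell type. Fth1, the ferritin heavy chain gene of iron storage, stood at 23171 CPM in antibody macrophages and 1281 CPM in control macrophages. Its log2 ratio was 4.18 (4.13 to 4.23) here and 3.82 in tumour cells. Its partner Ftl1 stood at 9191 and 10109 CPM, a log2 ratio of -0.14. Ccl8, a chemokine that draws monocytes, stood at 10331 CPM in antibody macrophages and 1053 CPM in control macrophages, a log2 ratio of 3.29 (3.24 to 3.35). In Cxcl9-positive macrophages it stood at 7287 and 254.8 CPM, and in tumour cells at 78.2 and 7.29 CPM with a log2 ratio of 3.42. Apoe, the apolipoprotein E gene of lipid export, stood at 5877 and 699 CPM, with log2 ratios of 3.07 here and 3.48 in tumour cells. Ly6a, Itm2b and Cmtm7 had log2 ratios of 3.18, 3.0 and 2.98, each above their tumour cell ratios of 2.71, 2.56 and 1.87.

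**Figure D4:**
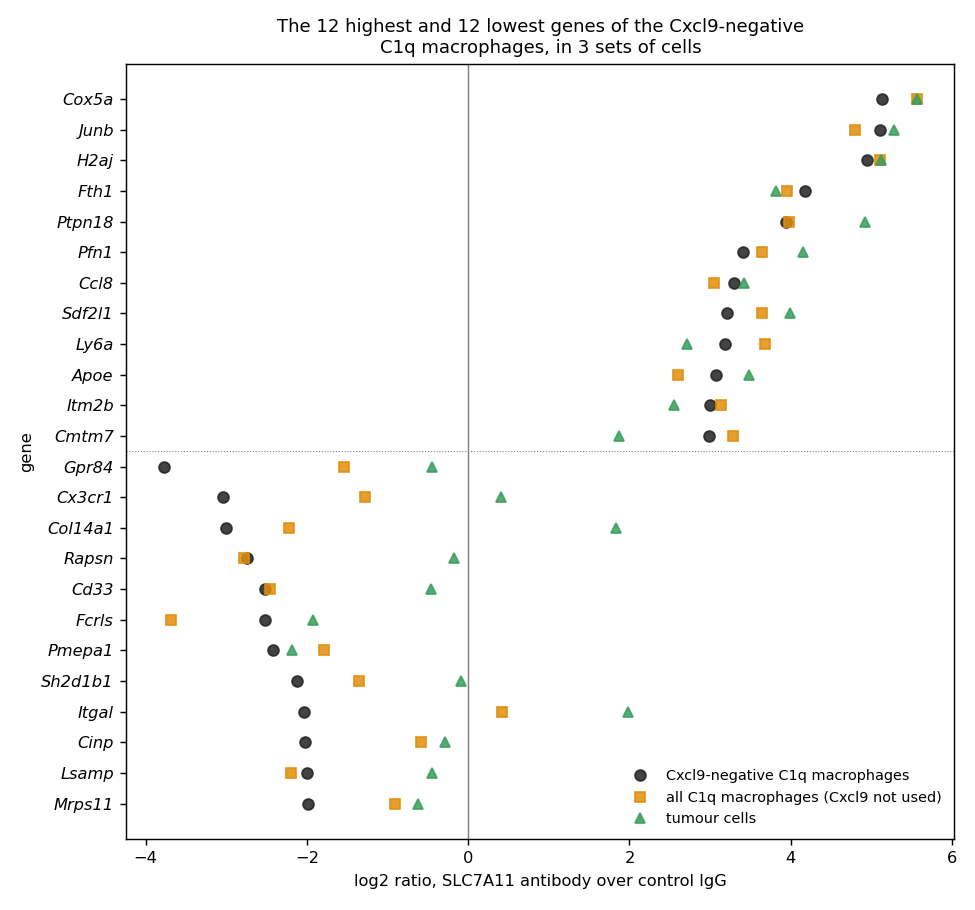
Log2 ratios, antibody over control (horizontal axis), of the 12 highest and 12 lowest genes (vertical axis) in Cxcl9-negative macrophages, in all C1q macrophages and in tumour cells. Cox5a, at 5.13 in macrophages and 5.56 in tumour cells, has like values in both sets, whereas Cx3cr1 is at -3.05 in macrophages and 0.41 in tumour cells.

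The genes whose ratio stood highest relative to that in the remaining barcodes were of another kind. Nrg1, the neuregulin growth factor gene, had 92 UMIs (94.6 CPM) in antibody cells and 47 UMIs (16.7 CPM) in control cells, with log2 ratios of 2.50 here and 0.05 in all other kept barcodes. Nrg1 stood at 94.4 and 91.3 CPM in those other barcodes, so antibody macrophages were level with them and control macrophages were lower. Of the Nrg1 UMIs of antibody macrophages, 55.4% lay in 5 cells, and 13.1% of these macrophages had any. Ednrb, the endothelin B receptor gene, had 109 and 92 UMIs and log2 ratios of 1.78 and 0.19, but 0.14 over all C1q macrophages. Of its UMIs, 39.4% lay in 5 antibody cells and 64.1% in 5 control cells. Pdgfc, a platelet-derived growth factor gene, had 57 and 61 UMIs and log2 ratios of 1.44 and -0.72. For Slc17a5, Rgl1 and Cela1 the ratios in macrophages were 0.91, 0.99 and 0.02, against -0.64, -0.52 and -1.54 elsewhere. Relative to all other barcodes, 345 genes (3.6%) were at least 2-fold higher and 1177 (12.3%) at least 2-fold lower. AI504432 and Acp5, the tartrate-resistant phosphatase gene, were named for the second direction, with log2 ratios of -1.30 and -0.53 here against 2.45 and 3.15 elsewhere. The other barcodes differed in make-up between the antibody and control libraries, and the part of this was not tested. They held 468 and 60 Cxcl9-positive macrophages, 513 and 116 C1q-low monocytes and 819 and 172 T cells.

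Genes of antigen presentation were higher in antibody macrophages, by less than in the tumour cells of that library. Of 8 class II genes measured, 5 were at least 2-fold higher and none lower, with a median log2 ratio of 1.43, where 8.71% of all genes were higher and 8.83% lower. H2-Aa stood at 4699 CPM in antibody cells and 1445 CPM in control cells, H2-Ab1 at 2255 and 384 CPM and H2-Eb1 at 3059 and 727 CPM. Cd74, the invariant chain gene, stood at 6584 and 2961 CPM. The median of the same list was 1.95 in Cxcl9-positive macrophages, 1.35 in C1q-low monocytes and 3.92 in tumour cells, where these genes were low. H2-Aa in tumour cells stood at 250 and 17.4 CPM. Of 17 class I genes, 6 were at least 2-fold higher, with a median of 0.61 against 1.51 in tumour cells. H2-K1 stood at 3442 and 1239.9 CPM.

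Interferon gamma response genes were higher too, in cells chosen to have no Cxcl9. Of 29 measured, 16 were at least 2-fold higher in antibody macrophages and none lower, against 8.71% and 8.83% of all genes, with a median log2 ratio of 1.03. That median was 1.15 in Cxcl9-positive macrophages and 2.84 in tumour cells. The transcription factor gene Irf1 stood at 233 CPM in antibody cells and 62.0 CPM in control cells, and the guanylate-binding protein gene Gbp2 at 101 and 30.8 CPM. The checkpoint ligand gene Cd274 stood at 278 and 80.5 CPM. Cxcl10, a CXCR3 ligand like Cxcl9, stood at 317 and 479 CPM, but it was detected in 26.6% of antibody and 18.2% of control cells. Its level and its detection thus had opposite orders. Of its control UMIs, 40.2% lay in 5 of 670 cells, and of its antibody UMIs 29.2% lay in 5 of 237. The part of these few cells in the opposite orders was not tested. Of 28 type I interferon response genes none was 2-fold higher and 1, Ifit3b, was lower with 7 and 119 UMIs. Their median was 0.00 against 0.98 in tumour cells.

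Alternative activation genes, known in mice from interleukin 4 signalling, were also higher. Of 16 measured, 8 were at least 2-fold higher and none lower, against 8.71% and 8.83% of all genes. Their median log2 ratio was 1.09, against 0.78 in both Cxcl9-positive macrophages and tumour cells, 0.64 over all C1q macrophages and -0.13 in C1q-low monocytes. Arg1 stood at 1354 CPM in antibody cells and 587 CPM in control cells, and the lectin gene Clec10a at 254 and 35.8 CPM. Retnla, a secreted protein of this programme, had 713 UMIs in 19 antibody cells and 9 UMIs in 2 control cells. Of those 713 UMIs, 66.1% lay in 5 cells. The scavenger receptor gene Cd163 stood at 81.2 and 16.7 CPM, and its UMIs lay in 9.28% and 4.48% of the cells. Cd209f, a lectin gene, had 69 UMIs in 13 antibody cells and 3 in 1 control cell. Retnla and Cd209f were thus features of a few antibody cells, not of the set.

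Tissue-resident macrophage genes were split. Of 22 measured, 5 were at least 2-fold higher and 5 at least 2-fold lower, with a median log2 ratio of 0.22. Without the Cxcl9 condition the median was -0.89. The folate receptor gene Folr2 stood at 487 CPM in antibody cells and 284 CPM in control cells and the hyaluronan receptor gene Lyve1 at 65.8 and 41.1 CPM. Igf1, the insulin-like growth factor gene, stood at 56.5 and 12.4 CPM. Mrc1 did not differ beyond counting error, with 1253 and 1324 CPM and a log2 ratio of -0.08 (-0.17 to 0.01). Genes that are shared with microglia were on the lower side, with 15 and 185 UMIs of Tmem119, 15 and 111 of Gpr34 and 14 and 77 of the ADP receptor gene P2ry12. Fcrls and Cx3cr1 had the same direction. Tmem119 stood at 56.4 and 107 CPM in all other kept barcodes, so it was not specific to the macrophages. Slc40a1, the iron exporter ferroportin, had 0 UMIs in antibody cells and 39 in control cells.

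Inflammatory cytokine and chemokine genes had no common direction. Of 15 cytokine genes, 3 were at least 2-fold higher and 2 lower, with a median log2 ratio of 0.03. Il1b, the interleukin 1 beta gene, stood at 1325 CPM in antibody cells and 3187 CPM in control cells, and Il1a at 23.6 and 67.0 CPM. Nos2, which makes nitric oxide, had 70 and 25 UMIs and a log2 ratio of 3.0, against 3.45 in all other barcodes. Il10 stood at 112 and 29.4 CPM. Of 23 chemokine genes, 3 were higher and 3 lower. Ccl12, a ligand of CCR2, stood at 2111 and 6003 CPM and the chemokine gene Ccl3 at 439 and 953 CPM. Ccl2 and Ccl7, which also bind CCR2, stood at 2149 and 3887 CPM and at 2575 and 4231 CPM. Ccl8 was thus the exception among these monocyte attractants.

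Genes of uptake and lipid handling differed singly. Of 10 Fc receptor genes none was 2-fold higher and 1, Fcrls, lower, with a median log2 ratio of -0.56. The inhibitory receptor gene Fcgr2b stood at 1169.7 CPM in antibody cells and 1674 CPM in control cells, whereas Fcgr4 stood at 557 and 284 CPM. Of 23 genes of the lipid-associated Spp1 programme, 8 were at least 2-fold higher and 1, Spp1 itself, lower, with a median of 0.30. Fabp5, a fatty acid carrier, stood at 1435 and 384 CPM, the fatty acid receptor Cd36 at 110.0 and 27.6 CPM and Mmp12 at 1538 and 923 CPM. Spp1 therefore went against the list that carries its name. Phagocytosis genes (20), cathepsin and lysosome genes (30) and glutathione and ferroptosis genes (24) had medians of -0.24, -0.09 and -0.07, with 2 genes higher in each and between 1 and 2 lower.

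Slc7a11, the gene of the antibody's target, was scarce in these macrophages. It had 25 UMIs in antibody cells (25.7 CPM) and 76 in control cells (26.9 CPM), a log2 ratio of -0.05 (-0.78 to 0.60). C1q-low monocytes had more, with 115.6 and 119.6 CPM. Slc3a2, which encodes the partner subunit CD98, stood at 521 CPM in antibody macrophages and 135 CPM in control macrophages, with a log2 ratio of 1.94 here and 1.76 in tumour cells. Gpx4, the glutathione peroxidase of membrane lipids, stood at 77.1 and 123 CPM. The remaining lists held cholesterol and lipid handling with a median of 0.46, hypoxia and glycolysis with 0.29, iron and haem with 0.22, growth factors and matrix with 0.25 and checkpoint ligands with 0.04. Immediate early genes, which dissociation can induce, had a median of 0.60 with 11 of 26 higher, against 0.99 in tumour cells. Amino acid stress genes had a median of -0.27, complement genes -0.06 and monocyte genes 0.30.

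**Figure D5:**
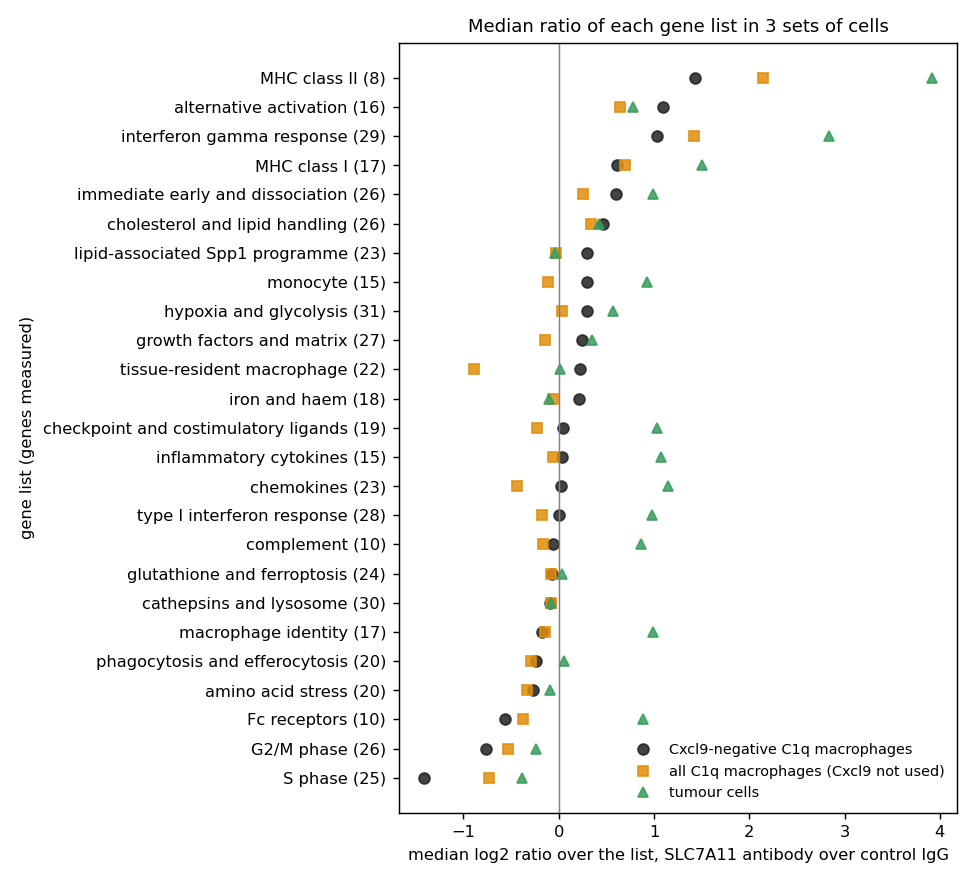
Median log2 ratio, antibody over control, (horizontal axis) of each gene list (vertical axis, with the number of genes measured) in Cxcl9-negative macrophages, in all C1q macrophages and in tumour cells. Class II genes are at 1.43 in the Cxcl9-negative macrophages and 3.92 in tumour cells, and S phase genes at -1.41 and -0.39.

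Set against the Cxcl9-positive C1q macrophages of their own library, the Cxcl9-negative cells had more of the resident macrophage genes. There were 468 Cxcl9-positive cells in the antibody library and 60 in the control library, deeper than the Cxcl9-negative ones, with medians of 6709 and 4883 UMIs. Of 6357 genes, 30 (0.472%) were at least 2-fold higher and 12 (0.189%) at least 2-fold lower in both libraries. Lyve1 stood at 65.8 CPM in Cxcl9-negative against 5.21 CPM in Cxcl9-positive antibody cells, and had 116 against 0 UMIs in control cells. F13a1, the coagulation factor XIII gene, stood at 566 against 49.9 CPM in antibody cells and 439 against 117 CPM in control cells, and Cbr2 at 236 against 22.4 CPM and 172 against 42.9 CPM. Gas6 had log2 ratios of 2.65 and 1.58, and Ednrb 3.69 and 2.93. Of 19 resident macrophage genes, 5 were at least 2-fold higher and none lower in both libraries, with medians of 1.00 in antibody and 0.63 in control cells. The neutrophil gene S100a9 was higher too, with 197 against 126 UMIs in antibody cells (log2 ratio 2.39) and 151 against 1 in control cells (3.64, 1.72 to 9.54). Depth differed between these sets, and its part was not tested.

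Lower in the Cxcl9-negative cells were genes that interferon gamma is known to induce. The serpin gene Serpina3g stood at 61.7 against 312 CPM in antibody cells and 13.8 against 85.9 CPM in control cells, and Cxcl11, the third ligand of CXCR3, at 33.9 against 136 CPM and 26.9 against 157 CPM. The complement C3 gene had log2 ratios of -1.98 and -1.74 and the argininosuccinate synthase gene Ass1 -1.25 and -1.22. Of 26 interferon gamma response genes measured, 3 were at least 2-fold lower in both libraries, with medians of -0.63 and -0.50. Since Cxcl9 chose the sets and is itself such a gene, this is a description.

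C1q-low monocytes (513 antibody and 116 control cells) were the other neighbours. They met the same conditions except that on Cxcl9, which was not read for them, so they could hold Cxcl9-positive cells. They had under 2000 CPM of C1q, at least 1000 CPM of Lyz2 and no S100a8 or S100a9. Of 5468 genes, 103 (1.88%) were at least 2-fold higher and 117 (2.14%) at least 2-fold lower in the Cxcl9-negative macrophages of both libraries. Gas6 stood at 156 against 1.17 CPM in antibody cells and 107 against 7.72 CPM in control cells, each monocyte value resting on 2 UMIs (log2 ratios 6.75, 5.19 to 10.1, and 3.47, 1.93 to 6.85). Pmp22, a membrane protein gene, stood at 274 against 16.3 CPM and 203 against 27.0 CPM, and the B cell linker gene Blnk at 58.6 against 7.59 CPM and 89.7 against 11.6 CPM. Of 17 resident macrophage genes 8 were at least 2-fold higher in both libraries, with medians of 2.64 and 1.19. Of 13 monocyte genes 10 were at least 2-fold lower, with medians of -2.16 and -2.54. Ly6c2, the marker of classical monocytes, stood at 40.1 against 519 CPM in antibody cells and 23 against 695 CPM in control cells. The haptoglobin gene Hp stood at 6.17 against 98.7 CPM and 8.15 against 316 CPM, and the thrombospondin gene Thbs1 at 21.6 against 259 CPM and 18.4 against 309 CPM. Of 13 G2 and mitosis genes 5 were at least 2-fold higher in the macrophages of both libraries. The genes that chose either set are left out of these values.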

How the data were processed

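Cells of 2 dissociated CT26 tumour libraries were profiled with a 10x 3' kit. The deposited tables hold raw UMI counts by gene and cell barcode. The submitters' processing notes name Cell Ranger 7.2.0, Seurat and the build mm10. Whether barcodes had been filtered, beyond a minimum of 500 UMIs seen in the tables, is not stated. The 28526 gene IDs listed in both tables were joined with the 2768 and 3106 listed in the antibody or the control table alone, a gene absent from a table counting as 0. Antibody and control cells were grouped from the treatment label.

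Cells were chosen by the rule in the opening, and their counts summed per library. Log2 ratios are of CPM with a prior count of 0.5, and their intervals are exact conditional binomial ones. Shares have Clopper-Pearson intervals. A gene was counted when it differed at least 2-fold with at least 20 UMIs over both libraries. With 1 library a group no test was run and no p-value is given. States were read after thinning to 2000 UMIs without replacement, shallower cells left out. A count of 0 was given an upper limit of 3 counts. Doublets were not removed. Scrublet (in scanpy 1.11.5) marked 10 antibody and 22 control cells of the set, and their removal is an alternative, with other thresholds, scalings and count minimums. Free RNA was not subtracted. It was to be gauged for cycling in neutrophils, of which 22 and 7 were deep enough, too few to use (5 and 3 were called cycling), so monocytes stand beside it.

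The comparison sets were Cxcl9-positive C1q macrophages (the same rule with at least 1 Cxcl9 UMI), C1q-low monocytes, T cells (at least 2 UMIs of Cd3 genes, under 2000 CPM of C1q) and tumour cells (at least 2 Hmga2 UMIs, under 2000 CPM of C1q). Named genes were the 12 highest and 12 lowest ratios of at least 2-fold, and the 6 highest and 6 lowest differences to the ratio in all other kept barcodes, among genes with at least 100 UMIs in the set. They also had to be detected in 10% of the cells of a library and to be no lower than in other barcodes where they were higher. Contrasts name genes among the 8 highest and 8 lowest. Gene models and genes on the sex chromosomes were left out, as were those of haemoglobins, ribosomal proteins, mitochondria, antibodies and T cell receptors. Members of the lists were also named. The set and the lists were chosen with earlier results of these data known. The steps were tested on simulated counts. Python 3.11.15, numpy 2.4.6, scipy 1.17.1 and pandas 2.3.3 were used. 3' counts follow the number of transcripts and not their length.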

Additional observations from a re-analysis of the deposited data

Results flagged for a closer look

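For a pair of genes the contrast between Cxcl9-negative and Cxcl9-positive C1q macrophages went in opposite directions in the 2 libraries. Ccl5, a chemokine gene, stood at 109 CPM in Cxcl9-negative against 263 CPM in Cxcl9-positive antibody cells, and at 31.9 against 11.5 CPM in control cells. The antibody contrast minus the control contrast was -2.58 on the log2 scale, and the control value of the Cxcl9-positive cells rests on 4 UMIs. P4ha2, a collagen prolyl hydroxylase gene, stood at 51.4 against 19.3 CPM in antibody cells and at 34.4 against 100.2 CPM in control cells, a difference of 2.97 between the contrasts. With 1 library a group neither difference was tested.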

How the results depend on the processing

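With 1 library per group, no replicate could be left out. No paired analysis was possible because each group has 1 sample. The log2 ratio of the Cxcl9-negative share of C1q macrophages (-1.45) was -1.21 at a C1q minimum of 1000 CPM and -1.73 in barcodes of at least 2000 UMIs. The share of all barcodes (-1.30) was -0.89 at 1000 CPM, -1.54 at 4000 CPM and -0.99 with Cxcl9 read after thinning. The Fcrls share (-1.81) was -2.76 with Cxcl9 read after thinning, -2.86 when thinned to 1000 UMIs, -3.49 at 2 UMIs and -3.28 over all C1q macrophages. Fn1 (-0.91) was -2.29 at 2 UMIs and -2.49 at 3, Spp1 (-0.45) -0.996 at 2 and -2.45 at 10. Cycling (-0.84) was -0.12 without thinning. The 834 genes higher became 3514 with no count minimum above 1, 317 at 100 UMIs, 345 after subtracting the ratio in other barcodes and 396 after subtracting that in tumour cells. The 845 lower became 1800 and 327 at the 2 count minimums. Median-of-ratios scaling shifted all ratios by 0.14 and split the genes into 1048 higher and 621 lower, against 834 and 845. Over all C1q macrophages the counts were 935 and 564. The causes of these shifts were not tested.

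After subtracting the ratio in other barcodes or in tumour cells, list medians turned to -0.64 or -0.68 for class I, -2.16 or -2.44 for class II, -1.70 or -1.76 for the interferon gamma response and -0.26 or -0.24 for immediate early genes. The lipid-associated list turned to -0.063 against other barcodes and -0.031 over all C1q macrophages. The other barcodes differed in make-up between the libraries, and the part of this was not tested. The genes that turned were Apoe (-1.14 or -0.41), Ccl8 (-1.11 or -0.13), Cox5a (-0.45 or -0.43), H2aj (-1.49 or -0.18), Junb (-0.18 in both), Pfn1 (-0.82 or -0.74), Ptpn18 (-1.71 or -0.99) and Sdf2l1 (-1.27 or -0.79). Acp5 turned to 0.033 at 1000 CPM of C1q and 0.039 with Cxcl9 thinned, and Itgal to 0.42 over all C1q macrophages. The subtraction of tumour cell ratios, the limits of 3 Fn1 and 10 Spp1 UMIs and the sets chosen without Cxcl9 were added after seeing the data. Removing doublets, requiring Hmga2 at 0 and a 10% mitochondrial limit turned no value. Of 32 named gene ratios, 21 moved beyond their counting interval and 1 turned when Cxcl9 was not used to choose the cells. Few UMIs (3 of Gpr84 in antibody cells) or cells (15 Fcrls-positive and 9 Spp1-high antibody cells) limit precision.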
